A study of Homo sapiens with 8 samples.

Results

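The genes described here encode the constitutive 26S proteasome, its activators, its assembly factor POMP and the transcription factor NFE2L1. They were chosen by gene symbol, from a list of 38 symbols, and all 38 were found among the 58051 genes counted. The list was split by role into 14 genes of the 20S core, 18 of the 19S cap, 4 of the activators and 2 others, *POMP* and *NFE2L1*. The study asked which secreted factors might account for adherens junctions forming between melanoma cells once serum is removed, and it measured RNA by sequencing after ribosomal RNA depletion. A375 is an established human melanoma line, and WT1, WT2, WT3 and WT4 were lines grown from single A375 cells, so each is 1 clone of the same cell line, and the paper uses WT for cells in which *NECTIN1* is intact. Each line gave 1 library in each of 2 groups. In the serum group the cells spent 12 h in DMEM with 10% FBS, and in the serum-free group they spent the same 12 h in DMEM without FBS. Both groups had been grown in DMEM with 10% FBS beforehand. Counts assigned to genes numbered 39647157, 67101005, 45095740 and 29759279 in the serum libraries of WT1 to WT4, and 40468165, 73341551, 37847737 and 53371498 in the serum-free libraries. The p-values therefore measure the spread among 4 clones of 1 line.

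The 26S proteasome degrades proteins that carry ubiquitin chains. Its 20S core is a barrel of stacked rings in which alpha subunits form the gate and some of the beta subunits carry the proteolytic sites, and its 19S cap recognises ubiquitin, removes it and threads the substrate into the barrel with a ring of ATPases. The PSME proteins bind the ends of the barrel in place of the cap, and NFE2L1 is a transcription factor known to raise proteasome subunit genes when proteolysis is impaired.

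The labelled cell type was checked against markers. Of 8 melanocyte and neural crest lineage genes, 6 passed the filter on low counts. *MITF*, the melanocyte master regulator, lay between 30.1 and 44.2 CPM (read counts relative to the size of the library) and was the most abundant of them in 7 libraries. *S100B* lay between 13.6 and 34.9 CPM and exceeded it in the serum-free library of WT3. *SOX10*, another defining gene of the lineage, had 0 counts in all 8 libraries, for which 3 counts, or 0.106 CPM in the shallowest library, is the limit from counting error alone. No exon of another gene overlaps *SOX10* in the annotation used here, that of the counting is unknown, and whether its reads were lost in the counting was not tested. *TYR* had at most 4 counts in any library, and *PMEL* and *MLANA* stayed at or below 1.44 CPM. Genes of undifferentiated melanoma were abundant, with *VIM* at 1038 to 1319 CPM and *AXL* at 309 to 656 CPM. Summed over 4 such genes, the level was 2241, 2121, 2128 and 1779.6 CPM with serum and 1965, 1965, 1787 and 1561 CPM without it, lower in all 4 lines with overlapping groups. None of the 4 passed the threshold, and with the line as a block *AXL* and *VIM* did (edgeR's quasi-likelihood test, Benjamini-Hochberg adjusted p = 0.000588 and 0.0159). Of the lineage genes, *MITF* fell by 0.28 on the log2 scale without serum and *S100A1*, which another gene overlaps over 50.4%, rose by 0.84 (edgeR's quasi-likelihood test, Benjamini-Hochberg adjusted p = 0.0496 and 0.00605). The summed lineage markers were 63.2, 57.6, 70.9 and 68.2 CPM with serum and 56.8, 54.7, 75.0 and 69.2 CPM without it, lower in WT1 and WT2 and higher in WT3 and WT4. Without the block *S100B* and *DCT* had log2 fold changes of 0.30 and -0.98 and did not pass the threshold. With the block both did (edgeR's quasi-likelihood test, Benjamini-Hochberg adjusted p = 0.0469 and 0.0251). The epithelial genes *EPCAM* and *CDH1* and the leukocyte genes *PTPRC* and *CD3E* did not pass the filter. Among the epithelial genes *KRT14* did, at 11.6 to 21.0 CPM, with *KRT5* at up to 1.28 CPM, and *CD14* was the leukocyte gene that passed, at up to 0.853 CPM.

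The libraries differed in ways that bear on the counts. Reads aligned to several places made up 22.7% and 16.8% of the reads tallied in the serum libraries of WT1 and WT2, against 5.73% to 10.1% in the other 6 libraries. Such reads were not counted. Across 17425 genes the difference within a line (serum-free over serum) was related to the GC content of the transcript in WT1, WT2 and WT3, with Spearman's rho of 0.40, 0.36 and 0.39, and less so in WT4, with rho of 0.07. These are correlations across genes, which are not independent replicates.

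All 38 proteasome genes passed the filter on low counts, which kept 17671 genes. Serum removal left 24 of the 38 genes lower and 0 higher at an adjusted p under 0.05 (edgeR, quasi-likelihood, Benjamini-Hochberg over all genes tested). Over all genes tested, 14% were called lower and 11.1% higher. At an unadjusted p under 0.05 the counts were 29 lower and 0 higher, beside 19.8% and 18.6% of all genes tested, and DESeq2 and limma voom also called 0 higher. The fold change was below 0 for 36 of the 38 genes, beside 46.6% of all genes tested. The median log2 fold change was -0.28 over the 38 genes and 0.03 over all genes tested. Every one of the 4 libraries without serum lay below every library with serum for 28 of the 38 genes, a pattern found in 15% of all genes tested. In 30 genes the level was lower without serum in all 4 lines, beside 26.6% of all genes tested.

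Summed over the 38 genes, expression was 7837, 7653, 7786 and 8044 CPM in the serum libraries of WT1 to WT4 and 6612, 6720.3, 6660.5 and 6340.1 CPM in the serum-free libraries. The 4 serum libraries lay above the 4 serum-free libraries with no overlap. The summed level fell by 15.6%, 12.2%, 14.5% and 21.2% in WT1 to WT4, which gives a mean change of -15.9% ± 3.82 (SD, n = 4 lines). WT4 had the highest sum with serum and the lowest sum without it. CPM is a share of the library, so less proteasome RNA and more RNA from other genes cannot be told apart, nor can fewer cells of a type and less RNA per cell.

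With the line as a block, 29 of the 38 genes were lower and 0 higher, beside 22.4% and 23.2% of all genes tested. With the block and a correction for GC content, 31 were lower and 0 higher, beside 24.7% and 21.8% of the genes tested in that fit. Fits with libraries left out were run without the block only, so whether the blocked calls depend on single libraries was not tested. Without the block, where the count was 24 from all 8 libraries, it depended on which libraries were included. It was 8 without WT1, 11 without WT2, 10 without WT3 and 25 without WT4, beside 5.35%, 6.73%, 6.47% and 17.4% of all genes tested in those fits. Without the serum library of WT1, WT2, WT3 or WT4 it was 18, 18, 18 and 27, beside 9.29%, 10.2%, 9.47% and 17.9% of all genes tested, and without the serum-free library of each it was 17, 18, 22 and 17, beside 10.8%, 11.3%, 11.3% and 10.2%. When the serum libraries of WT1 and WT2 were left out it was 6, beside 3.88% of all genes, so the calls of the other 18 genes were lost in that fit. The median over the 38 genes was -0.28, -0.29, -0.30 and -0.22 without each line in turn and -0.28 without those 2 serum libraries. Upper-quartile scaling gave 16 lower and 0 higher, beside 10.4% of all genes called lower.

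**Figure D1:**
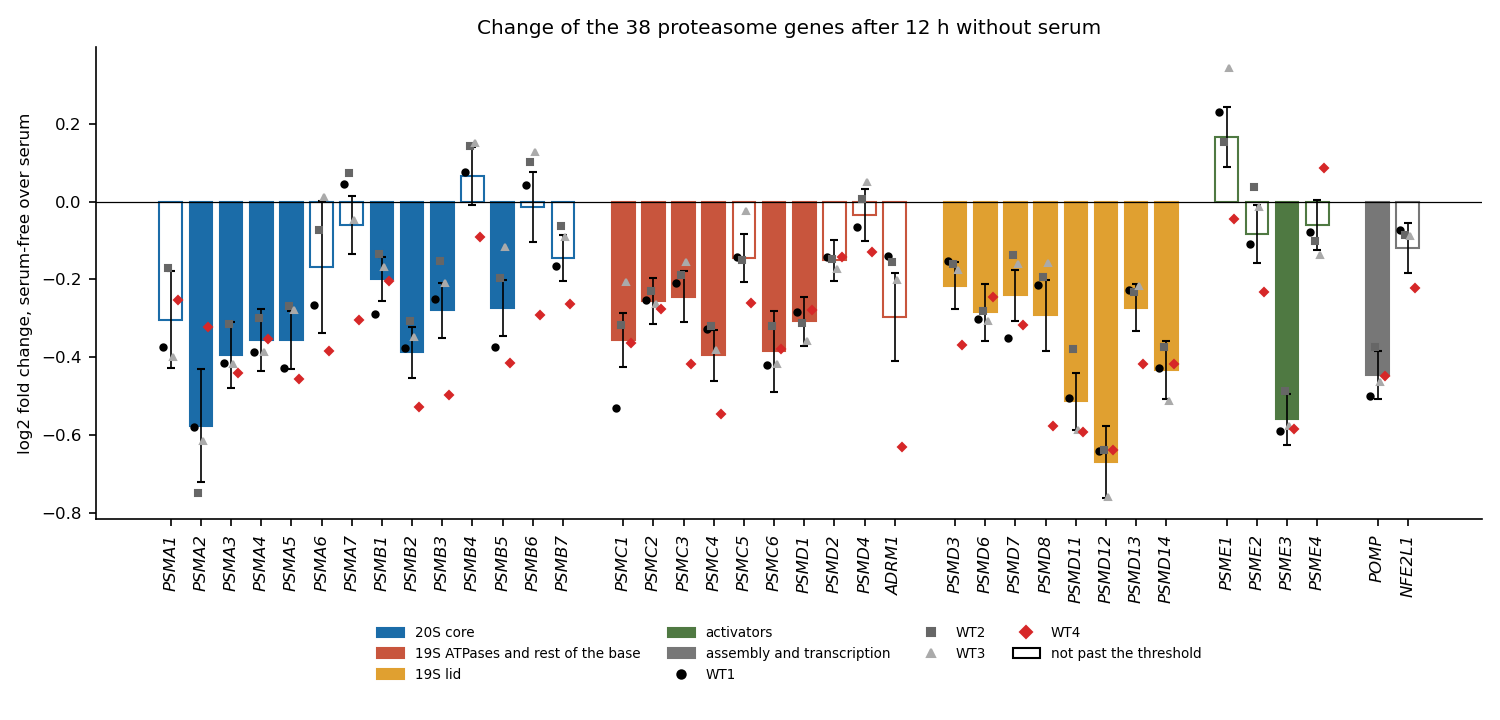
Log2 fold change (serum-free over serum) of each of the 38 genes by role, as bars with the standard error from edgeR and with the difference within each of the 4 lines as points. Filled bars mark the 24 genes past the threshold, all of them lower, and the open bars of *PSMA7*, *PSMB6*, *PSMD4* and *PSME4* lay at or above 0 under upper-quartile scaling.

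In the 20S core, 8 of 14 genes fell, beside 14% of all genes tested, and 6 did not pass the threshold. The median log2 fold change was -0.28. The 7 alpha subunit genes had a median of -0.36 with 4 lower, and the 7 beta subunit genes had a median of -0.20 with 4 lower. Whether alpha and beta genes differed was not tested. The alpha genes that fell were *PSMA2*, *PSMA3*, *PSMA4* and *PSMA5*, and the beta genes that fell were *PSMB1*, *PSMB2*, *PSMB3* and *PSMB5*. The within-line median of the 14 genes was -0.33, -0.16, -0.19 and -0.34 in WT1 to WT4.

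*PSMB2* encodes a beta subunit without proteolytic activity and lies on chromosome 1 at 35599541 to 35641526 (GRCh38). Its level in the serum libraries of WT1 to WT4 was 308, 288, 281 and 297 CPM, and in the serum-free libraries 238, 233, 220.4 and 206 CPM. The groups did not overlap, with an SD of 11.9 CPM among the serum libraries and 14.3 CPM among the serum-free libraries. *PSMB2* changed by -0.39 ± 0.07 (SE) on the log2 scale, lower in 4 of 4 lines (edgeR's quasi-likelihood test, Benjamini-Hochberg adjusted p = 0.00379), and it passed the threshold in all 21 alternative fits.

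*PSMA5*, an alpha ring gene on chromosome 1 at 109399042 to 109426448, stood at 174, 159.7, 157 and 153 CPM with serum and at 129, 133, 129 and 111 CPM without it. The groups did not overlap, and the serum-free library of WT4 was the lowest of the 8. Its log2 fold change was -0.36 ± 0.08 (SE; edgeR's quasi-likelihood test, Benjamini-Hochberg adjusted p = 0.0087), lower in 4 of 4 lines. The fold change was -0.18 with the block and GC correction. Without both libraries of WT1 it no longer passed the threshold (edgeR's quasi-likelihood test, Benjamini-Hochberg adjusted p = 0.0611), nor without the serum libraries of WT1 and WT2 (adjusted p = 0.0928).

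The proteolytic sites are carried by the products of *PSMB5*, *PSMB6* and *PSMB7*, which cleave after hydrophobic, acidic and basic residues. *PSMB5* (chromosome 14, 23025851 to 23035220) measured 142, 132, 139.9 and 149 CPM with serum and 109, 115.5, 129 and 112 CPM without it. Its groups were close but did not overlap, since the serum library of WT2 and the serum-free library of WT3 were 132 and 129 CPM. It fell by 0.27 on the log2 scale (SE 0.07; edgeR's quasi-likelihood test, Benjamini-Hochberg adjusted p = 0.0212), lower in 4 of 4 lines. That call was lost when a single library was left out, for the serum libraries of WT1 and WT3 and the serum-free libraries of WT1, WT2 and WT4 (edgeR's quasi-likelihood test, Benjamini-Hochberg adjusted p = 0.0539, 0.0522, 0.0718, 0.0596 and 0.0633). In those fits the log2 fold change lay between -0.28 and -0.25. The call was lost also without both libraries of WT1, without both of WT2, without the serum libraries of WT1 and WT2, and under upper-quartile scaling.

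The calls of *PSMB1* and *PSMB3* were also lost when single libraries were left out, with fold changes close to those from all 8 libraries. *PSMB3*, a structural beta gene, fell by 0.28 on the log2 scale, a call lost without the serum-free library of WT1 or of WT4 (-0.27 and -0.26; edgeR's quasi-likelihood test, Benjamini-Hochberg adjusted p = 0.0617 and 0.0579). *PSMB1* fell by 0.20, and its call was lost without any 1 of the serum libraries of WT1, WT2 and WT3 or the serum-free libraries of WT1, WT2 and WT4 (-0.21 to -0.18; edgeR's quasi-likelihood test, Benjamini-Hochberg adjusted p between 0.0594 and 0.0832). The calls of *PSMB3* and *PSMB1* were lost also under upper-quartile scaling (-0.21 and -0.13) and without both libraries of WT1, of WT2 or of WT3. They were lost as well without the serum libraries of WT1 and WT2 (-0.35 and -0.20). That of *PSMB1* was lost with no filter (-0.20) and with the block and GC correction (-0.08).

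*PSMB7* (chromosome 9, 124353465 to 124415442) was at 272, 268, 279.8 and 288 CPM with serum and at 243, 257, 263 and 240.0 CPM without it. All serum values lay above all serum-free values, and the closest were WT2 with serum and WT3 without it. The log2 fold change of *PSMB7* was -0.15 ± 0.06 (SE), which did not pass the threshold (edgeR's quasi-likelihood test, Benjamini-Hochberg adjusted p = 0.0983) and did so with the line as a block (adjusted p = 0.040). *PSMB6* (chromosome 17, 4796164 to 4798495) gave 99.3, 98.4, 100.3 and 128 CPM with serum against 102, 106, 109.5 and 105 CPM without it. Here the groups overlapped, and WT4 alone was lower without serum, from a serum value that stood apart from the other 3. The log2 fold change was -0.01 ± 0.09 (SE; edgeR's quasi-likelihood test, Benjamini-Hochberg adjusted p = 0.936), and it was 0.09 without the serum library of WT4 and 0.05 under upper-quartile scaling.

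*PSMB4*, a beta subunit gene without a proteolytic site, was the only core gene with a fold change above 0. It stood at 496, 491, 504 and 598 CPM with serum and at 523, 543, 559 and 562 CPM without it, so 3 lines were higher without serum and WT4 was lower. On the log2 scale the change was 0.07 ± 0.07 (SE; edgeR's quasi-likelihood test, Benjamini-Hochberg adjusted p = 0.561), and it was -0.02 when the serum libraries of WT1 and WT2 were left out. *PSMA7*, an alpha ring gene, had a log2 fold change of -0.06 with higher values in 2 lines and lower values in 2. Its change was 0.00 under upper-quartile scaling and 0.02 without WT4, and with the block and GC correction it was -0.19 and passed the threshold (edgeR's quasi-likelihood test, Benjamini-Hochberg adjusted p = 0.00418).

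Some core genes had low counts where the annotation places another gene over them. Annotated exons of other genes cover 100% of the canonical transcript of *PSMA2*, 81.4% of that of *PSMA6* and 67.0% of that of *PSMA1* in the annotation used here. Reads that fall on 2 genes at once are left out by the counting tool, and 8.23% to 11.5% of the reads tallied were left out in this way. *PSMA2* averaged 6.88 ± 0.968 CPM with serum and 4.62 ± 0.402 CPM without it (SD, n = 4), *PSMA6* averaged 6.39 and 5.69 CPM, and *PSMA1* averaged 23.8 and 19.3 CPM, while the other 4 alpha genes averaged 78.3 CPM or more in both groups. The values of *PSMA1*, *PSMA2* and *PSMA6* are therefore uncertain. The recorded log2 fold change of *PSMA2* was -0.58 ± 0.15 (SE; edgeR's quasi-likelihood test, Benjamini-Hochberg adjusted p = 0.0183), lower in 4 of 4 lines, and its call was lost without the serum library of WT1 (adjusted p = 0.0587) or of WT2 (adjusted p = 0.0529). The call of *PSMA2* was lost also without both libraries of WT1, of WT2 or of WT3, and without the serum libraries of WT1 and WT2. *PSMC1* and *PSMD7* in the cap were also covered over 83.2% and 51.6%, and *ADRM1*, *PSMC5* and *PSMB5* over 26.7%, 13.7% and 10.4%. Leaving out the 5 genes covered over more than 50% left 33 genes, with a median of -0.27. Of these 21 were lower and 0 higher, beside 14% and 11.1% of all genes tested.

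In the 19S cap, 14 of 18 genes fell and 0 rose, beside 14% and 11.1% of all genes tested. All 18 fold changes were below 0, beside 46.6% of all genes tested, with a median of -0.29. Under upper-quartile scaling *PSMD4* was at 0.03. The within-line median of the 18 genes was -0.27, -0.23, -0.21 and -0.37 in WT1 to WT4. Of the 10 genes of the base, which sits on the core, 6 were lower, and the 8 listed genes of the lid, the part that removes ubiquitin chains, were lower.

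The ATPase ring of the base is made by *PSMC1* to *PSMC6*. Of these genes 5 fell, beside 14% of all genes tested. Their log2 fold changes were -0.39 for *PSMC4*, -0.38 for *PSMC6*, -0.35 for *PSMC1*, -0.25 for *PSMC2* and -0.24 for *PSMC3*. *PSMC5* had -0.14 and did not pass the threshold (edgeR's quasi-likelihood test, Benjamini-Hochberg adjusted p = 0.108), and with the line as a block it did (adjusted p = 0.0466). For all 6 ATPase genes the groups did not overlap, with lower levels without serum, a pattern found in 15% of all genes tested. The call of *PSMC2* was lost without WT1, WT2 or WT3 and with the block and GC correction, where it was at -0.08 (edgeR's quasi-likelihood test, Benjamini-Hochberg adjusted p = 0.0763, 0.0815, 0.0719 and 0.146). The call of *PSMC3* was lost without the serum-free library of WT1, WT2 or WT4, and that of *PSMC6* without the serum library of WT1, WT2 or WT3 (edgeR's quasi-likelihood test, Benjamini-Hochberg adjusted p = 0.0752, 0.0639, 0.0685, 0.0678, 0.0508 and 0.0637). Both calls were lost also without both libraries of WT1, of WT2 or of WT3, and that of *PSMC3* under upper-quartile scaling (-0.18). Without the serum libraries of WT1 and WT2 the calls of *PSMC2* (-0.23), *PSMC3* (-0.30) and *PSMC6* (-0.31) were lost.

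*PSMC4* (chromosome 19, 39971165 to 39981764) gave 325, 315, 347 and 368 CPM in the serum libraries of WT1 to WT4 and 259, 252, 267 and 252 CPM in the serum-free libraries. The serum-free libraries were close to each other, with an SD of 7.02 CPM, and all lay below the serum libraries, with an SD of 23.6 CPM. The log2 fold change was -0.39 ± 0.07 (SE; edgeR's quasi-likelihood test, Benjamini-Hochberg adjusted p = 0.00337), lower in 4 of 4 lines and past the threshold in all 21 alternative fits. *PSMC1* (chromosome 14, 90256553 to 90275429) read 74.9, 71.7, 66.5 and 67.2 CPM with serum and 51.8, 57.5, 57.7 and 52.2 CPM without it. Its groups did not overlap, with WT1 showing the widest gap. *PSMC1* changed by -0.35 ± 0.07 on the log2 scale (SE; edgeR's quasi-likelihood test, Benjamini-Hochberg adjusted p = 0.00648), lower in 4 of 4 lines, a call lost without WT1 (adjusted p = 0.0640) and without the serum libraries of WT1 and WT2 (adjusted p = 0.0855). Exons of *NRDE2* overlap it, and 13 annotated pseudogenes carry its name, so its level is uncertain.

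The rest of the base holds the scaffold genes *PSMD1* and *PSMD2* and the ubiquitin receptor genes *PSMD4* and *ADRM1*. *PSMD1* fell by 0.31 on the log2 scale (SE 0.06; edgeR's quasi-likelihood test, Benjamini-Hochberg adjusted p = 0.00738), lower in 4 of 4 lines. Its call was lost without WT2 (adjusted p = 0.0601), without WT3 (adjusted p = 0.0544) and without the serum libraries of WT1 and WT2 (adjusted p = 0.0792). *PSMD2*, whose serum libraries lay between 360.4 and 374 CPM and serum-free libraries between 319.9 and 339 CPM, had a log2 fold change of -0.15 ± 0.05 (SE; edgeR's quasi-likelihood test, Benjamini-Hochberg adjusted p = 0.0625). In the same test it passed with the line as a block (adjusted p = 0.0223) and without the serum library of WT4 (adjusted p = 0.0471).

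*ADRM1* measured 152, 161, 152 and 217 CPM with serum and 138, 144, 132 and 140.0 CPM without it. The groups did not overlap, but the serum library of WT4 stood far above the other 3, and WT4 changed by -0.63 on the log2 scale where WT1, WT2 and WT3 changed by -0.14, -0.16 and -0.20. The log2 fold change of *ADRM1* was -0.30 ± 0.11 (SE; edgeR's quasi-likelihood test, Benjamini-Hochberg adjusted p = 0.0807), -0.28 with the block (adjusted p = 0.00639), -0.56 with the block and GC correction (adjusted p = 2.84e-07) and -0.16 without the serum library of WT4 (adjusted p = 0.0452). At 64.2%, its transcript had the highest GC content of the 38. *PSMD4* was at -0.04 ± 0.07 (SE), with higher values without serum in 2 lines and lower values in 2.

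The 8 listed lid genes fell, were lower in 4 of 4 lines and had groups that did not overlap. Of all genes tested, 14% were called lower and 26.6% were lower in all 4 lines. All serum-free libraries lay below all serum libraries for 15% of them. *SEM1*, a small lid subunit gene outside the 38, had a log2 fold change of 0.00 with overlapping groups, lower in 2 lines and higher in WT2 and WT3 (edgeR's quasi-likelihood test, Benjamini-Hochberg adjusted p = 0.995), and was higher with the block and GC correction (0.29, adjusted p = 0.0254). The log2 fold changes of the 8 listed genes were -0.67 for *PSMD12*, -0.51 for *PSMD11*, -0.43 for *PSMD14*, -0.29 for *PSMD8*, -0.28 for *PSMD6*, -0.27 for *PSMD13*, -0.24 for *PSMD7* and -0.22 for *PSMD3*. The fold change of *PSMD14*, the deubiquitinase of the lid, was -0.15 with the block and GC correction, and its transcript had the lowest GC content of the 38 genes, 32.0%. With that correction the 8 listed genes were called lower, beside 24.7% of the genes tested in that fit. Under upper-quartile scaling *PSMD3*, *PSMD6*, *PSMD7* and *PSMD8* were not, and the calls of these 4 genes were lost also when single libraries were left out. For *PSMD3* these were the serum libraries of WT2 and WT3 and the serum-free libraries of WT1, WT2 and WT4, with adjusted p between 0.0525 and 0.0806 (edgeR, Benjamini-Hochberg). The log2 fold change of *PSMD3* in those fits lay between -0.23 and -0.20. For *PSMD6* they were the serum libraries of WT1 and WT2 and the serum-free library of WT3, with adjusted p between 0.0519 and 0.0588 (edgeR, Benjamini-Hochberg). For *PSMD7* they were the serum libraries of WT1 and WT3 and the serum-free libraries of WT1, WT2 and WT4, with adjusted p between 0.0566 and 0.0727 (edgeR, Benjamini-Hochberg). For *PSMD8* they were the serum libraries of WT2 and WT3 and each of the 4 serum-free libraries, with adjusted p between 0.0626 and 0.123 (edgeR, Benjamini-Hochberg). Over all 21 alternative fits the log2 fold change of *PSMD3* lay between -0.31 and -0.15 and that of *PSMD6* between -0.32 and -0.12. That of *PSMD7* lay between -0.28 and -0.18 and that of *PSMD8* between -0.42 and -0.19.

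*PSMD12*, a scaffold gene of the lid at 67337916 to 67366577 on chromosome 17, stood at 253, 241, 244 and 203 CPM in the serum libraries of WT1 to WT4 and at 162, 155, 144 and 130.3 CPM in the serum-free libraries. WT4 was the lowest line in both groups, and its serum value still lay above the highest serum-free value. The mean was 235 ± 22.2 CPM with serum and 148 ± 13.9 CPM without it (SD, n = 4). The change was -0.67 ± 0.09 on the log2 scale, or -37.1%, lower in 4 of 4 lines (SE; edgeR's quasi-likelihood test, Benjamini-Hochberg adjusted p = 0.00184). Within the lines it was -0.64, -0.64, -0.76 and -0.64. This was the lowest fold change of the 38 genes without GC correction. With the block and GC correction it was -0.48, and *PSME3*, *ADRM1*, *PSMD11* and *PSMC4* were lower.

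*PSMD11*, also a scaffold gene of the lid and located on chromosome 17 at 32444510 to 32483319, had 466, 434, 454 and 422 CPM with serum and 329, 334, 302 and 279.6 CPM without it. The groups did not overlap, and WT4 was the lowest line in both. Its mean was 444 ± 19.9 CPM with serum and 311 ± 25.3 CPM without it (SD, n = 4). *PSMD11* fell by 0.51 on the log2 scale (SE 0.07; edgeR's quasi-likelihood test, Benjamini-Hochberg adjusted p = 0.002), lower in 4 of 4 lines, and it fell by 0.51 with the block and GC correction as well. Both *PSMD11* and *PSMD12* passed the threshold in all 21 alternative fits.

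Of the 4 activator genes, *PSME3* fell, beside 14% of all genes tested, and the other 3 did not pass the threshold. Their median log2 fold change, over all 4, was -0.07. *PSME3* encodes the nuclear activator PA28 gamma and lies on chromosome 17 at 42833397 to 42843760. It was at 425, 395, 435 and 389 CPM with serum and at 283, 282, 292 and 259 CPM without it. Every serum library lay above every serum-free library, and WT4 was the lowest line in both groups. The mean went from 411 ± 22.6 CPM to 279 ± 14.1 CPM (SD, n = 4). The log2 fold change was -0.56 ± 0.07, or -32.1%, lower in 4 of 4 lines (SE; edgeR's quasi-likelihood test, Benjamini-Hochberg adjusted p = 0.00112). It had the smallest p of the 38 genes, passed the threshold in all 21 alternative fits and changed by -0.60 with the block and GC correction.

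The cytosolic activator PA28 is built from the products of *PSME1* and *PSME2*, which interferon induces. *PSME1* gave 43.5, 46.2, 42.7 and 52.6 CPM with serum and 51.0, 51.3, 54.1 and 50.9 CPM without it. It was higher without serum in WT1, WT2 and WT3 and lower in WT4, and the groups overlapped. Its log2 fold change was 0.17 ± 0.08 (SE; edgeR's quasi-likelihood test, Benjamini-Hochberg adjusted p = 0.145). Without the serum library of WT4 it was 0.23 and passed the threshold (adjusted p = 0.0133), as it did without both WT4 libraries (0.24, adjusted p = 0.0162). *PSME2* had a log2 fold change of -0.08, and *PSME4*, whose product PA200 is a nuclear activator, had -0.06, with overlapping groups for both. *PSME4* was at 0.00 under upper-quartile scaling and 0.03 with the block and GC correction. Whether *PSME3* differed from the other activator genes was not tested.

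*POMP* encodes the chaperone that brings the rings of the core together, and it lies on chromosome 13 at 28659130 to 28678959. It stood at 248, 244, 244 and 227 CPM in the serum libraries of WT1 to WT4 and at 175, 189, 177 and 167 CPM in the serum-free libraries. The groups did not overlap, and WT4 was the lowest line in both. *POMP* fell, with a log2 fold change of -0.44 ± 0.06, or -26.5%, lower in 4 of 4 lines (SE; edgeR's quasi-likelihood test, Benjamini-Hochberg adjusted p = 0.00195), and -0.30 with the block and GC correction. *POMP* passed the threshold in all 21 alternative fits.

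*NFE2L1* (chromosome 17, 48048359 to 48061545) had 219, 236, 224 and 253 CPM with serum and 208, 223, 211 and 217 CPM without it. Each line was lower without serum, but the groups overlapped. Its log2 fold change was -0.12 ± 0.06 (SE; edgeR's quasi-likelihood test, Benjamini-Hochberg adjusted p = 0.206). With the line as a block the call stayed absent (adjusted p = 0.0854), and with the block and GC correction the log2 fold change was -0.24 and passed the threshold (adjusted p = 0.000121). The level of this RNA does not measure the protein, which is regulated by processing and degradation.

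**Figure D2:**
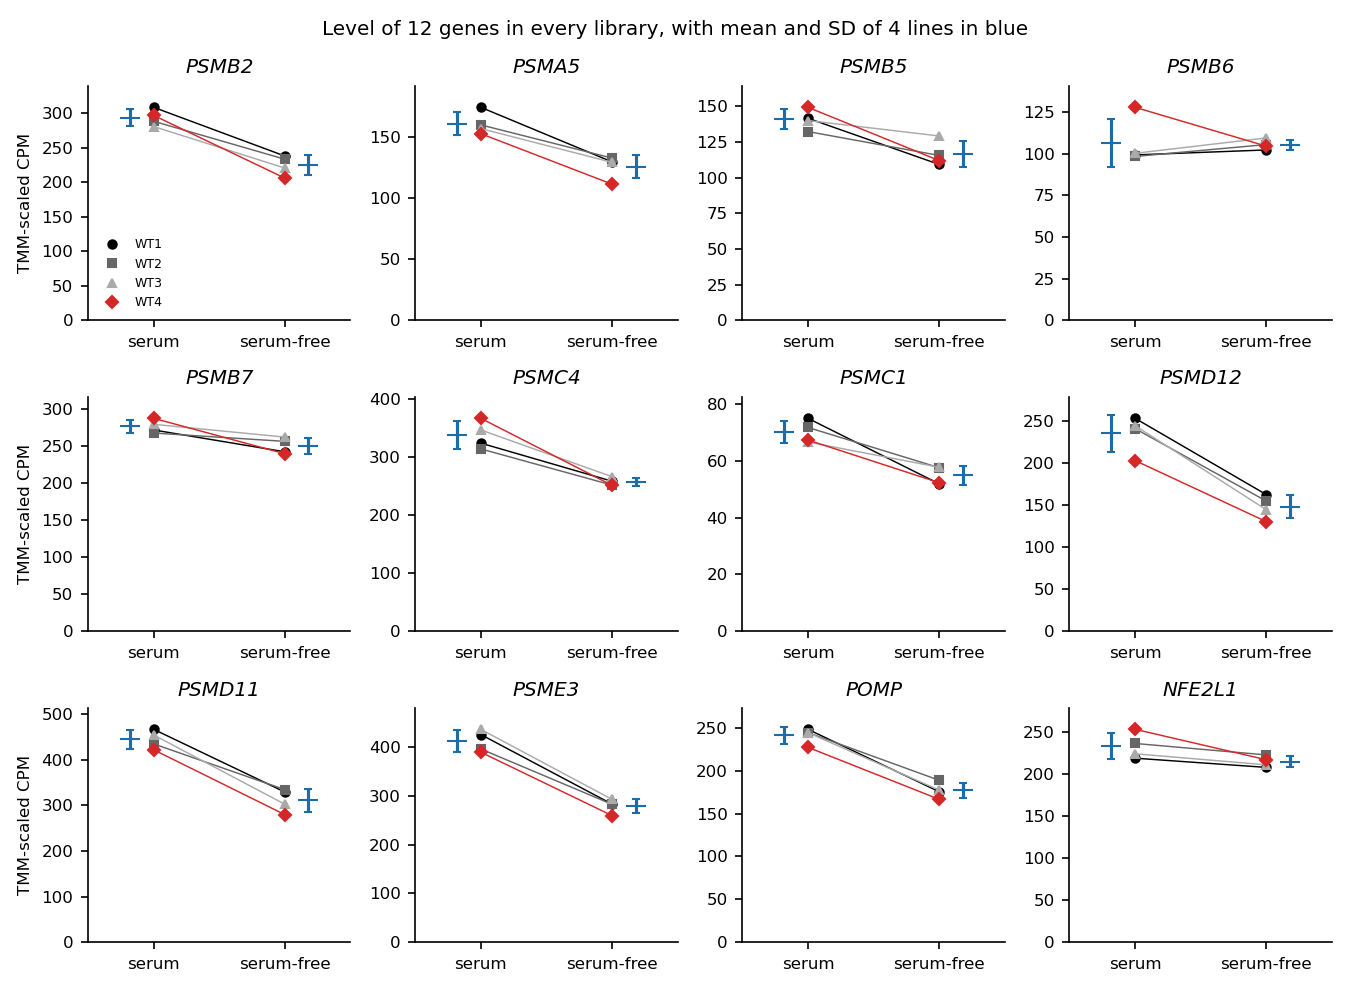
TMM-scaled CPM of 12 genes in each of the 8 libraries, with lines joining the serum and serum-free libraries of the same line and with the mean and SD of 4 lines in blue. *PSMD12*, *PSMD11*, *PSME3*, *POMP*, *PSMB2*, *PSMC4*, *PSMC1* and *PSMA5* show groups that do not overlap, while *NFE2L1* and *PSMB6*, whose change lay above 0 under upper-quartile scaling, show groups that do.

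The promoter windows of genes that moved together and of 1 that did not are shown for comparison. RefSeq promoter entries (GRCh38.p14) were matched for 33 of the 38 genes, and those of *PSMA7*, *PSMB1*, *PSMB6*, *PSMB7* and *PSMD4* were not matched. The 250 bases before each start were searched on both strands for 10 motifs. The motif TGACNNNGC, which is the core of the element bound by NFE2L1 with small MAF proteins, occurred in 9 of the 33 genes (27.3%), beside 15.7% of the 11942 tested genes with an entry. CCAAT, the letters bound by NF-Y, occurred in 17 (51.5%, beside 41.3%), and CCGGAAG, a motif of ETS factors, in 8 (24.2%, beside 17.8%). The other 7 were AAGATGGC in 2 genes (6.06%, beside 2.24%), GCGCATGC followed by GC in 1 (3.03%, beside 2.14%), TGACGTCA in 0 (beside 3.28%), CACGTG in 2 (6.06%, beside 10.9%), TGCTGAG followed by TCA in 0 (beside 0.151%), CGGAAGTG in 5 (15.2%, beside 7.0005%) and GGGCGG in 23 (69.7%, beside 72.2%). CCGGAAG and CGGAAGTG share the letters CGGAAG, and a match of TGCTGAG followed by TCA is also a match of TGACNNNGC on the other strand. A match is a description of letters, not a binding site.

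The sequences below run 5′ to 3′ on the strand of the gene, and capitals mark TGACNNNGC, CCAAT and CCGGAAG on either strand. They are *PSMD12* (chr17:67366578-67366827, minus strand), *PSME3* (chr17:42833147-42833396, plus strand), *POMP* (chr13:28658880-28659129, plus strand) and *PSMB4* (chr1:151399323-151399572, plus strand), with *PSMB4* shown because its level did not pass the threshold.
PSMD12: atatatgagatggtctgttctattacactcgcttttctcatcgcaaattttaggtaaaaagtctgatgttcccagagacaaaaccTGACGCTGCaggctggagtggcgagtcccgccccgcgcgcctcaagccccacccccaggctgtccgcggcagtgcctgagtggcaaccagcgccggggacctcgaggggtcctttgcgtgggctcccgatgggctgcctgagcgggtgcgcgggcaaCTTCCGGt
PSME3: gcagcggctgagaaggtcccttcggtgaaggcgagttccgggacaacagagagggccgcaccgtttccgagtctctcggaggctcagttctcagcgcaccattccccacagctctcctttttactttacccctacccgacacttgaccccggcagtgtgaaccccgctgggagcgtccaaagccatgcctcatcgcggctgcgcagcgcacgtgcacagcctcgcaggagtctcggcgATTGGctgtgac
POMP: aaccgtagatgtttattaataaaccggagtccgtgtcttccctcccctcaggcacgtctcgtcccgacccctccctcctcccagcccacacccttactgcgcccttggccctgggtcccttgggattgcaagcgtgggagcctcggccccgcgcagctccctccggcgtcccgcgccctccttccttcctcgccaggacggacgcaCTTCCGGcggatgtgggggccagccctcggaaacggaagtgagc
PSMB4: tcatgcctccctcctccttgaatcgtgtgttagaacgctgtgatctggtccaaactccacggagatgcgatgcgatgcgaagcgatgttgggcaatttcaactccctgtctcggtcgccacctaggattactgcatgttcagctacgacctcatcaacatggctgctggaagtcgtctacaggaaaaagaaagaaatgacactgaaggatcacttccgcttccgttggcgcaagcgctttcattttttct
The window of *PSMD12* held TGACNNNGC starting 165 bases before the start and CCGGAAG on the opposite strand starting 8 bases before it. The window of *PSME3* held CCAAT on the opposite strand 12 bases before the start, and that of *POMP* held CCGGAAG on the opposite strand 44 bases before it. None of the 3 motifs occurred in the window of *PSMB4*, which held CGGAAGTG, as did that of *POMP*. They were absent also for *PSMB2*, *PSMC1*, *PSMC4*, *PSMD1* and *PSMD11*, which fell, and for *PSMA1*, *PSMA6* and *PSMD2*, which did not pass the threshold. Windows of *PSMC5*, *ADRM1*, *PSME1*, *PSME2*, *PSME4* and *NFE2L1*, which did not pass either, held some of them. Whether these motifs go with the fall was not tested. Other genes with TGACNNNGC were *PSMA4*, *PSMB3*, *PSMC5*, *PSMD3*, *ADRM1*, *PSME1*, *PSME2* and *PSME4*, of which *PSMA4*, *PSMB3* and *PSMD3* fell.

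GC content moved with the size of the change among the 38 genes. Across them, the log2 fold change was related to transcript GC content with Pearson's r of 0.45 and Spearman's rho of 0.49, a description over genes that share libraries. The 24 genes with GC content under 50% had a median log2 fold change of -0.33 with 18 lower, and the 14 genes at 50% or more had a median of -0.18 with 6 lower. Over all genes tested, of any GC content, 14% were called lower, and shares by GC content are not given here. Within lines, rho was 0.64, 0.50 and 0.55 in WT1, WT2 and WT3 and 0.08 in WT4. With the block and GC correction the medians of the same 24 and 14 genes were -0.22 and -0.28, and rho over the 38 was -0.26. Called lower were 19 and 12 of them, beside 24.7% of all genes tested in that fit. In that fit *PSMA7*, *PSMD4*, *PSME2* and *NFE2L1* also passed the threshold, as did *PSMA1*, *PSMB7*, *PSMC5*, *PSMD2* and *ADRM1*, while *PSMB1* (-0.08) and *PSMC2* (-0.08) no longer did. Among genes that passed in both fits, *PSMA3* went from -0.39 to -0.20, *PSMD6* from -0.28 to -0.12, *PSMC6* from -0.38 to -0.22 and *PSMC3* from -0.24 to -0.39. *PSMA6*, *PSMB4*, *PSMB6*, *PSME1* and *PSME4* passed with neither, nor with the block alone.

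**Figure D3:**
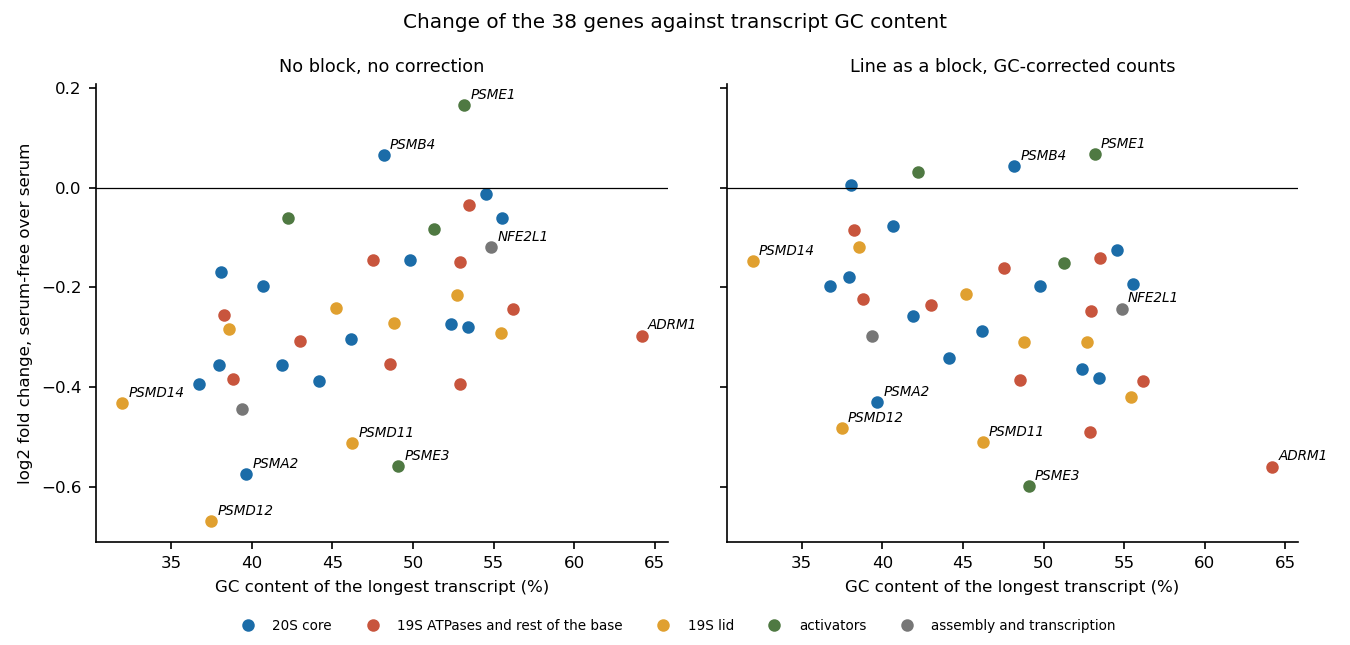
Log2 fold change (serum-free over serum) of the 38 genes against the GC content of the longest annotated transcript, without a block or correction (left) and with the line as a block and GC-corrected counts (right). Points rise to the right in the left panel, where rho is 0.49, and not in the right panel, where rho is -0.26 and *PSMA6*, *PSMB4*, *PSME1* and *PSME4* lie above 0, and *PSMA7*, *PSMB6*, *PSMD4* and *PSME4* lay at or above 0 under upper-quartile scaling.

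Levels between genes were compared per length, as RPKM (read counts relative to the length of the merged exons and to the size of the library). With serum, 36 of the 38 genes lay above the median of the genes tested, 2.75 RPKM. *PSMA7* (261 ± 22.4 RPKM) and *PSMB4* (246 ± 24.0 RPKM) were highest and did not differ beyond their spread (SD, n = 4). Their order depended on the length used, since *PSMB4* (569 RPKM) lay above *PSMA7* (476 RPKM) by canonical transcript and below *PSMA7* (448 RPKM) and *PSMB7* (281 RPKM) by longest transcript (253 RPKM). By merged exons *PSMB7* (155 ± 4.90 RPKM) and *PSMB3* (149.7 ± 12.0 RPKM) followed, then *PSMC4* at 133 ± 9.27 RPKM and *PSMC3* at 102 ± 7.57 RPKM. By longest and by canonical transcript *PSMD4* (203 and 205 RPKM) lay above *PSMC4* (193 RPKM), and by canonical transcript *PSMC3* was 10th. Among the catalytic genes *PSMB5* was at 90.9 ± 4.50 RPKM and *PSMB6* at 73.6 ± 9.88 RPKM. Of the activators, *PSME3* was at 79.7 ± 4.38 RPKM, and *PSME1*, *PSME4* and *PSME2* at 26.0, 23.5 and 16.1 RPKM. By canonical transcript *PSME1*, *PSME4* and *PSME2* were at 47.9, 33.8 and 72.8 RPKM, so their order depended on the length. *PSMA6* and *PSMA2*, which are among the genes with overlapping annotation, were lowest at 0.982 and 0.821 RPKM. Without serum *PSMB4* (257 ± 8.49 RPKM) and *PSMA7* (251 ± 13.6 RPKM) were again highest, and *PSMC4* was at 101 ± 2.75 RPKM.

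**Figure D4:**
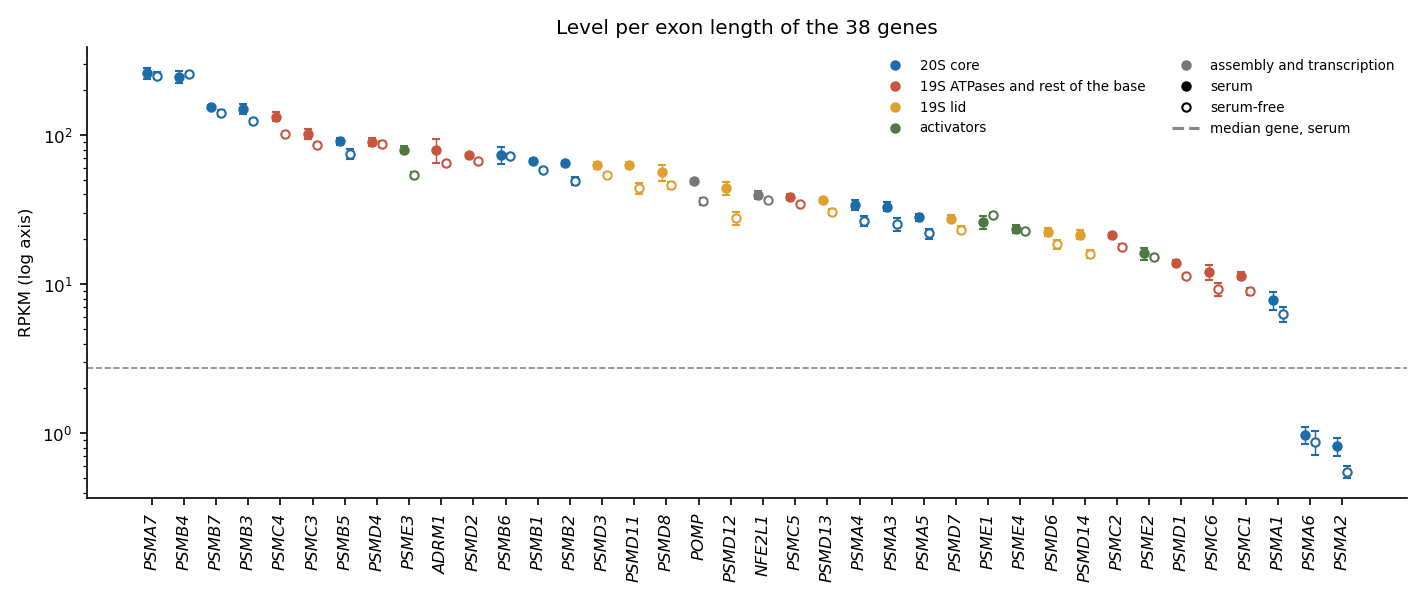
RPKM of the 38 genes in order of their level with serum, on a log axis, with serum as filled and serum-free as open points (mean and SD of 4 lines) and the median gene as a dashed line. *PSMA7* and *PSMB4* stand highest at 261 and 246 RPKM with serum, and *PSMA6* and *PSMA2* lie below the median gene of 2.75 RPKM.

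Genes that act with the proteasome were counted in the same fit, in which 14% of all genes tested were lower and 11.1% higher, or 22.4% and 23.2% with the line as a block. Interferon-inducible subunits replace the catalytic ones in the immunoproteasome. *PSMB10* was at 4.21, 3.56, 3.60 and 3.63 CPM with serum and at 6.14, 6.70, 5.01 and 6.95 CPM without it. All serum-free libraries lay above all serum libraries. It rose by 0.73 on the log2 scale (SE 0.15; edgeR's quasi-likelihood test, Benjamini-Hochberg adjusted p = 0.00771), and the call was lost in 2 of 21 alternative fits, which reached an adjusted p of 0.0654. With the block and GC correction it was at 0.48. *PSMB8* was at 22.0, 20.6, 20.8 and 22.5 CPM with serum and at 21.5, 21.5, 22.2 and 22.0 CPM without it, with overlapping groups and a log2 fold change of 0.02. *PSMB9* was at 6.33, 7.73, 6.38 and 9.86 CPM with serum and at 9.36, 10.3, 9.56 and 9.29 CPM without it, and the serum library of WT4 lay among the serum-free values. Its log2 fold change of 0.35 ± 0.15 (SE) did not pass the threshold (edgeR's quasi-likelihood test, Benjamini-Hochberg adjusted p = 0.125) and did so with the line as a block (adjusted p = 0.0218). *PSMB11* and *PSMA8*, the thymus and testis subunit genes, did not pass the filter.

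Of 8 assembly chaperone genes, 2 fell and 0 rose, beside 14% and 11.1% of all genes tested, and 4 were lower with the line as a block, beside 22.4%. *PSMG1*, whose product helps to form the alpha ring, was at 56.8, 53.9, 52.8 and 44.5 CPM with serum and at 37.7, 34.5, 32.8 and 30.6 CPM without it, with no overlap. It changed by -0.62 ± 0.09 (SE; edgeR's quasi-likelihood test, Benjamini-Hochberg adjusted p = 0.00243), and its partner *PSMG2* by -0.33 ± 0.07 (adjusted p = 0.00967), both lower in 4 of 4 lines. The call of *PSMG2* was lost in 3 of 21 alternative fits, with an adjusted p of up to 0.0806, and *PSMG2* was at -0.19 with the block and GC correction. Of 10 genes for proteins that associate with the proteasome, 5 fell and 0 rose: *UCHL5*, *UBE3C*, *USP14*, *TXNL1* and *ZFAND2A*. The block gave 6 lower, and the calls of *USP14*, *TXNL1* and *ZFAND2A* held in 15, 17 and 10 of 21 alternative fits. The deubiquitinase gene *UCHL5*, whose product binds ADRM1, changed by -0.65 ± 0.11 (SE; edgeR's quasi-likelihood test, Benjamini-Hochberg adjusted p = 0.00398) and the ubiquitin ligase gene *UBE3C* by -0.32 ± 0.06 (adjusted p = 0.00469), both lower in 4 of 4 lines. With the block and GC correction *UCHL5* was at -0.41, *USP14* went from -0.44 to -0.26 and *TXNL1* from -0.36 to -0.18. The call of *UBE3C* was lost in 1 of 21 alternative fits (edgeR, Benjamini-Hochberg adjusted p = 0.0631).

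Among 13 genes that process, partner or resemble NFE2L1, 4 fell and 1 rose, beside 14% and 11.1% of all genes tested. With the line as a block 4 were lower and 5 higher, beside 22.4% and 23.2%, with *SYVN1*, *MAFG*, *OGT* and *KEAP1* added to the higher genes. With the block and GC correction 5 were lower and 4 higher, beside 24.7% and 21.8%. In that fit *SYVN1* (0.07), *MAFG* (-0.01) and *KEAP1* (0.11) did not pass the threshold and *OGT* (0.33) did. *NGLY1* (0.24) and *SEL1L* (0.15) were called higher there, and *HCFC1* (-0.22) lower. *NFE2L2*, the related oxidative stress factor, was at 116, 119, 124 and 111 CPM with serum and at 86.2, 86.8, 88.0 and 91.2 CPM without it. The groups did not overlap, and the log2 fold change was -0.41 ± 0.06 (SE; edgeR's quasi-likelihood test, Benjamini-Hochberg adjusted p = 0.00204). *MAFK*, a small MAF partner, rose by 0.64 (SE 0.11; edgeR's quasi-likelihood test, Benjamini-Hochberg adjusted p = 0.00396), higher in 4 of 4 lines, and by 0.38 with the block and GC correction. The other genes that fell were *NFE2L3*, *FBXW7* and *DDI2*. The calls of *NFE2L3* and *FBXW7* held in 17 of 21 alternative fits and that of *DDI2* in 7, with overlapping groups and a higher value without serum in WT4. *DDI2* went from -0.24 to -0.16 with the block and GC correction. Of 8 genes of the VCP unfoldase and its cofactors, 3 fell and 0 rose: *FAF1* by 0.38, *FAF2* by 0.29 and *UFD1* by 0.26. These calls held in 20, 18 and 17 of 21 alternative fits, with an adjusted p of up to 0.0544, 0.0678 and 0.0727 (edgeR, Benjamini-Hochberg). The block gave 5 lower and 2 higher, beside the same 22.4% and 23.2%. *VCP* itself was at -0.04.

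Of 6 ubiquitin and E1 enzyme genes, 1 fell, beside 14% of all genes tested. This was *UBA6*, which changed by -0.39 ± 0.11 (SE; edgeR's quasi-likelihood test, Benjamini-Hochberg adjusted p = 0.0251). Its groups overlapped, its change in WT4 was -0.11, its call held in 12 of 21 alternative fits, and it was at -0.16 with the block and GC correction. With the line as a block 3 of these 6 genes were lower, beside 22.4% of all genes tested. Of 6 ubiquitin shuttle genes, *UBQLN1* and *RAD23B* fell by 0.38 and 0.32 and 0 rose, and *UBQLN1* was at -0.19 with the block and GC correction. *SQSTM1* had the highest fold change of the shuttle genes, 0.48, with an adjusted p of 0.138 (edgeR, Benjamini-Hochberg), and passed with the line as a block (adjusted p = 3.99e-05).

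The counts were set beside 3 other complexes. The COP9 signalosome, whose architecture resembles the lid, had 5 of 9 genes lower and 0 higher, beside 14% and 11.1% of all genes tested, with a median log2 fold change of -0.20, and eIF3, which shares that architecture, had 5 of 13 lower and 0 higher with a median of -0.17. The CCT chaperonin, a ring that folds newly made proteins, had 7 of 8 lower and 0 higher with a median of -0.51. In the blocked fit the genes lower numbered 6 of 9, 10 of 13 and 8 of 8, beside 22.4% of all genes tested. The genes with the smallest p were *COPS3* (-0.41) and *COPS2* (-0.48, or -0.22 with the block and GC correction), *EIF3J* (-0.64) and *EIF3B* (-0.31), and *CCT3* (-0.53) and *CCT6A* (-0.62). Lower calls without serum thus occurred in these complexes as well as in the proteasome, and differences between the complexes were not tested.

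**Figure D5:**
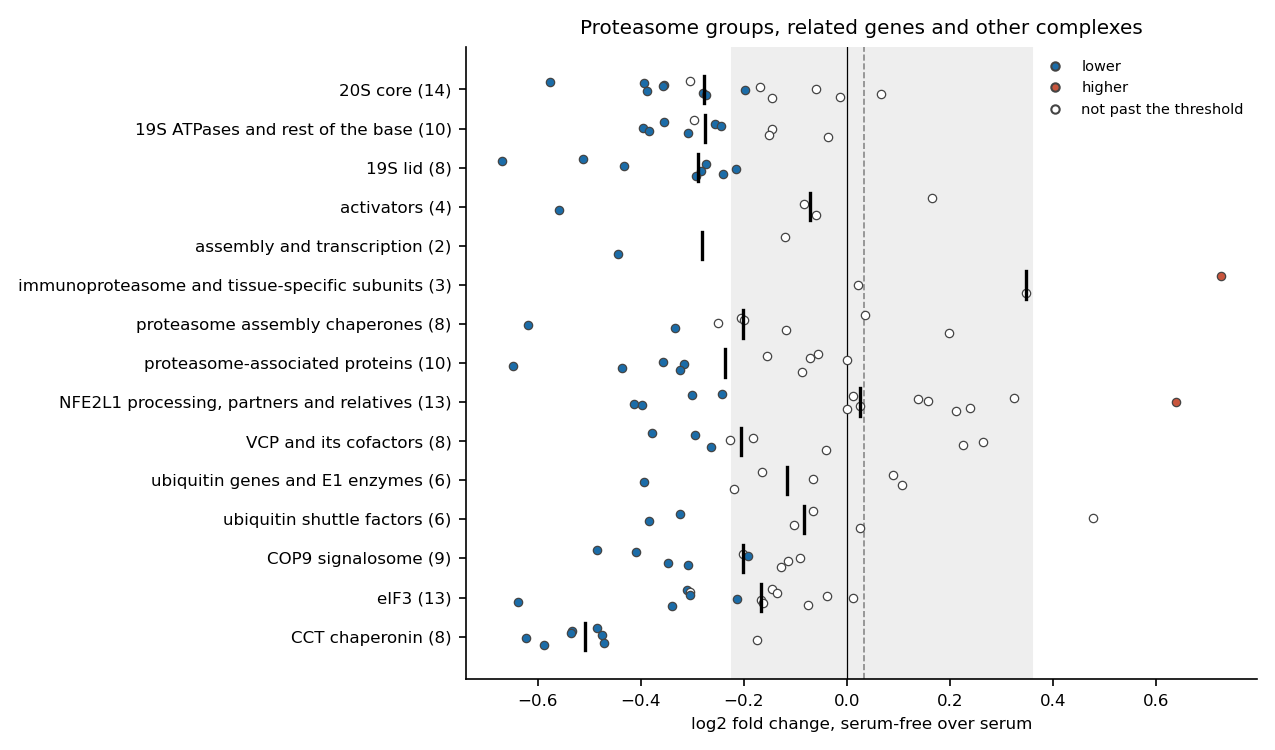
Log2 fold change (serum-free over serum) of each tested gene in the proteasome groups, related lists and comparison complexes, with the number of genes in brackets, the median as a black bar, and the middle range and median of all genes tested as a grey band and dashed line. The 20S core, base and lid have medians of -0.28, -0.28 and -0.29, the CCT chaperonin -0.51 and all genes tested 0.03, and *PSMA7*, *PSMB6*, *PSMD4* and *PSME4* lay at or above 0 under upper-quartile scaling.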

How the data were processed

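RNA of 8 libraries, 1 from each of 4 lines in each of 2 groups, was sequenced by the submitters as paired reads of 100 bases according to the labels. The study's paper gives longer reads, the hg19 build and Cufflinks for its RNA sequencing, and the labels were followed here. The deposited values are raw read counts per Ensembl gene. The submitters' processing notes name cutadapt, TopHat2 (2.0.11), HTSeq and GRCh38; neither the release of the annotation nor how strand was handled is given in the sources used here. Reads on several places or on overlapping genes were not counted and made up 16.1% to 31.0% of the reads tallied in counting. Reads outside annotated genes were recorded as 0 in all 8 libraries, so these shares do not include them.

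Symbols were matched for 55604 of 58051 genes. Counts were filtered with filterByExpr, scaled with TMM and tested with edgeR (4.0.16; R 4.3.3) in its robust quasi-likelihood test of serum-free against serum over all 17671 genes kept, with Benjamini-Hochberg adjustment and a threshold of 0.05. CPM and RPKM were computed with the TMM-scaled library sizes. Lengths, GC content and exon overlaps came from GENCODE lifted to GRCh37, another build, and coordinates and promoters from RefSeq (GRCh38.p14). Same-numbered libraries come from the same line by their labels, although the count files of WT4 carry another clone name, and their deviations from the group means correlated at 0.40 to 0.60, against at most 0.13 for other pairs, so the line number was a valid block. Alternatives were the block, the block with GC correction, DESeq2 (1.42.0), limma voom (3.58.1), RLE and upper-quartile scaling, other filters, other lengths and TPM, and leaving out each library and each line. Leaving out the serum libraries of WT1 and WT2 and using the canonical transcript length were added after seeing the data. The fits were tested on simulated data. Values in every library are given for the 2 genes with the smallest p past the threshold in each direction in the core, base, lid and activators, and for *NFE2L1*, *POMP*, *PSMB5*, *PSMB6* and *PSMB7*. In related lists the rule took the 2 genes with the smallest p past the threshold, and *PSMB8*, *PSMB9* and *PSMB10*. Other genes were described after their values were seen. The genes and lists were chosen with earlier results of these data known.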

Additional observations from a re-analysis of the deposited data

Results flagged for a closer look

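In 7 of 76 groups of 4 libraries, 1 library lay far from the other 3, with a gap to its nearest neighbour that, as a share of the whole range, was above Dixon's critical value for 4 values at the 95% level. Chance would give about 1 in 20 such groups, or 3.8, if the groups were independent. They are not, since all genes were measured in the same libraries and 1 unusual library can give several. Of the 7, 6 concern WT4. With serum, WT4 was high for *PSMB4* (598 CPM, the others 491 to 504), *PSMB6* (128 CPM, the others 98.4 to 100.3), *PSMC3* (258 CPM, the others 223 to 226) and *ADRM1* (217 CPM, the others 152 to 161), and low for *PSMD14* (142 CPM, the others 161 to 164). Without serum, WT4 was low for *PSMA5* (111 CPM, the others 129 to 133), and WT3 was high for *PSME1* (54.1 CPM, the others 50.9 to 51.3). GC contents of the 4 genes high in WT4 with serum were 48.2%, 54.5%, 56.2% and 64.2%, and that of *PSMD14* was 32.0%; the part of GC content in these values was not tested.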

How the results depend on the processing

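Over 21 alternative fits, 6 genes passed the threshold in all (*PSMB2*, *PSMC4*, *PSMD11*, *PSMD12*, *PSME3* and *POMP*). The calls of *PSMA3* and *PSMA4* held in 18 of these fits, that of *PSMD13* in 17 and that of *PSMD14* in 20. The number of genes called over the whole table, 4434, was 8067 with the line as a replicate block, 8092 with the block and GC correction and 1098 without the serum libraries of WT1 and WT2, a fit with fewer samples. It lay between 1589 and 6128 when a library or a line was left out, and was 2842 without the serum library of WT1. Proteasome genes called lower numbered 24, 6 without the serum libraries of WT1 and WT2, 29 with the block, and 8 to 27 with a library or line left out. Genes called higher numbered 0 or, without WT4 or its serum library, 1 (*PSME1*). Upper-quartile scaling split the genes called into 1843 lower and 2508 higher, against 2477 and 1957. A scaling factor moves all genes of a library alike, and the median over all genes tested went from 0.03 to 0.10. The activators' median went from -0.07 to -0.00661. Why the scalings differed was not tested. The medians of the core and cap lay between -0.31 and -0.20 and between -0.30 and -0.22 over all fits.

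Directions turned only for genes that did not pass the threshold: *PSMA6* (0.00539) and *PSME4* (0.0313) with the block and GC correction, and *PSMA7* (0.00452), *PSMB6* (0.0514), *PSMD4* (0.0293) and *PSME4* (0.00448) under upper-quartile scaling. *PSMB6* was at 0.00118 with voom and at 0.00244 with at least 10 counts in every library, and *PSMB4* was at -0.0160 without the serum libraries of WT1 and WT2. With a library or line left out, *PSMA7* lay between -0.105 and 0.0240, *PSMB6* between -0.0721 and 0.0915 and *PSMD4* between -0.0772 and 0.00398, above 0 without WT4 for the first 2 and without its serum library for the last 2. The cause was not tested. Beside the calls named in the report, *PSMA1* passed the threshold with the block (-0.30; edgeR's quasi-likelihood test, Benjamini-Hochberg adjusted p = 0.0047) and without the serum library of WT4 (adjusted p = 0.0202). In the same test *PSMA1* and *PSMD2* passed without both WT4 libraries (adjusted p = 0.018 and 0.0395), and *ADRM1* with no filter (adjusted p = 0.0488). *PSMD2* passed also with DESeq2 (Benjamini-Hochberg adjusted p = 0.00762). With serum, the level of *PSMA7* was 448 RPKM by longest transcript, 476 by canonical transcript and 1067 TPM, against 261, and that of *PSMB4* was 253 RPKM, 569 RPKM and 1002 TPM, against 246. The lowest count of any of the 38 genes in a library was 156, for *PSMA6*, so depth limits *PSMA6* and *PSMA2* most.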
